A study of Mus musculus with 2 samples.

Results

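The cytosolic ribosomal proteins are the protein parts of the ribosome that translates nuclear mRNAs, and their genes were compared here between pre CFU-E of WT and ESAM-KO mice. A gene was a member if its probes carried a RefSeq accession whose mouse symbol was Rpl or Rps followed by a number, Rplp0 to Rplp2, or Rpsa. This rule used no measured value. It gave 76 genes of the 20660 named genes on the array, with 164 probes of the 27235 probes that could be named. Of the 76 genes, 46 belong to the large subunit and 30 to the small subunit.

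Both groups were mice 8 to 12 weeks old that received 1 injection of 5-FU (120 mg/kg) and were killed 8 days later. The study names C57BL/6 as the strain of its purchased WT mice. It bred ESAM-KO and WT mice from heterozygous parents and names no strain for the ESAM-KO line. One group was WT and the other was ESAM-KO, which lacks endothelial cell-selective adhesion molecule in every cell and not only in blood cells. Pre CFU-E, sorted from the marrow as Lin- cells that were CD150+ and endoglin+, c-Kit+ but Sca1-, CD41Lo and FCgRII/III-/Lo, are early progenitors committed to the red cell lineage. Marrow of 3 mice per genotype was pooled before the sort, and the RNA of the sorted cells was amplified for 1 array each, both of them 1-colour Agilent whole-genome arrays. With 1 array per genotype there is no spread between replicates and no test, and a difference between genotypes cannot be told apart from one between pools, sorts or amplifications.

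Ribosomal proteins are made in near-equal amounts, because each ribosome carries 1 copy of nearly every one of them. Their mRNAs are among the most abundant in growing cells. Most begin with a terminal oligopyrimidine (TOP) tract, a C followed by a run of pyrimidines, through which mTORC1 and the cap-binding protein LARP1 set how well they are translated. Red cell progenitors are known for their need of these proteins: loss of 1 gene copy of several of them causes Diamond-Blackfan anemia, a failure of red cell production in the marrow. Free Rpl5 and Rpl11, bound to 5S rRNA, inhibit Mdm2 and so stabilize p53. 5-FU itself is built into RNA and disturbs the processing of ribosomal RNA.

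The start of the transcript is the element these genes are known to share, so a few starts are shown before the values. RefSeq promoter windows of build GRCm38.p6 were matched for 56 of the 76 members, in 66 windows. Each sequence below is 30 bases long, 15 before the annotated start and 15 from it on, read 5′ to 3′ on the strand of the gene. Capitals mark a C followed by at least 4 pyrimidines that begins exactly at the annotated start. The first is Rps6, the ribosomal protein that S6 kinase phosphorylates downstream of mTORC1 (chr4:86857353-86857382, minus strand). Rps27 (chr3:90213634-90213663, minus strand) and Rpl15 (chr14:18270972-18271001, minus strand) were among the lowest members of their subunits in ESAM-KO. Rpl35 (chr2:39005117-39005146, minus strand) lay nearer to 0, and Rpl38 (chr11:114668565-114668594, plus strand) near the median. Rpsa (chr9:120127751-120127780, plus strand) and Rps3 (chr7:99483695-99483724, minus strand) had the lowest and the highest ratio of all members, and neither holds the tract at its annotated start.
Rps6: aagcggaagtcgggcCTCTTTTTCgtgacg
Rps27: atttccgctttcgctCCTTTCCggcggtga
Rpl15: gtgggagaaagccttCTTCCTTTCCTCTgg
Rpl35: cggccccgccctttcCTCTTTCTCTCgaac
Rpl38: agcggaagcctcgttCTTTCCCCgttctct
Rpsa: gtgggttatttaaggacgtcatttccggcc
Rps3: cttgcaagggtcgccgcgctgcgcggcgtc

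Such a tract stood at the annotated start in 13 of the 66 windows of members (19.7%), and in 823 of all 32851 promoter windows (2.51%). A window without it says only that the annotated start is not followed by these letters, since annotated starts can lie a few bases from the true one. The 13 genes with the tract had a median log2 ratio of -0.31, from -0.53 to -0.18. The 43 genes without it had a median of -0.27, from -0.58 to 0.26, and the range of the former lay within that of the latter.

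Before the values of the members, the arrays themselves are described. The upper quartile of the processed intensity was 201.4 in WT and 251.1 in ESAM-KO. Scaling each array to it lowered all log2 ratios of ESAM-KO over WT by 0.32. Intensities are given below as deposited, unscaled and with WT first, and log2 ratios after scaling unless stated otherwise. Between 57.3% and 61.1% of spots were well above background, and no spot was saturated. The targeted gene, Esam, read 27.4 in WT and 20.6 in ESAM-KO, both close to the lowest intensity above background (12.6 and 13.2), and its scaled log2 ratio was -0.73 ± 0.31 (scanner error), so a reading this weak gives little check of the genotype. All 7 early erythroid markers exceeded background on each array. The median of their log2 ratios was -0.32, with Gata1 (5959 in WT and 5889 in ESAM-KO), the master regulator of red cell genes, at -0.34 and Klf1 (1149 and 1147), another erythroid factor, at -0.32. The list was not uniform (SD 0.52): Tfrc, the transferrin receptor (2377 and 5468), was the highest at 0.89, and Eng, the gene of the sort marker endoglin (375 and 269), the lowest at -0.80. Slamf1, the gene of the sort marker CD150, was weak (17.8 and 23.0).

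Each of the 8 neutrophil markers read lower in ESAM-KO, past 2-fold, with intensities of 335 to 31988 in WT and 42.3 to 6901 in ESAM-KO, none of them at background. Their median log2 ratio was -3.36. Transcripts typical of neutrophils thus differed between the WT and the ESAM-KO array, and their part in the results below was not tested. In pooled sorted cells, fewer cells of a type and less RNA per cell cannot be told apart. Of 5 B cell markers, 3 were lower by more than 2-fold, as were Prg2 (1223 and 113) and Epx (296 and 19.5), both made by eosinophils. These are 2 of 5 mast cell, basophil and eosinophil markers, of which Ms4a2, a mast cell and basophil receptor chain, went the other way, from not well above background in WT to 40.9 in ESAM-KO (at least 2.61-fold higher). Of the macrophage, megakaryocyte and endothelial markers, 1 of each list lay past 2-fold in each direction, and no T and NK cell marker did. The globin genes Hba-a1 (69472 in WT and 18064 in ESAM-KO) and Hbb-bs (2399 and 521), chosen after their values were seen, were lower as well, with log2 ratios of -2.26 and -2.52.

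All 76 ribosomal protein genes gave a signal well above background in either genotype, with intensities of 4683 to 123009 in WT and 4755 to 122484 in ESAM-KO. After scaling, 75 of them read lower in ESAM-KO and 1 read higher. The shift was small: the median log2 ratio was -0.27, or 1.20-fold lower, and the values ran from -0.58 to 0.26 with an SD of 0.14 across genes. None passed the 2-fold criterion used in the study. Among all named genes with a ratio or a bound, 15.4% passed it, 6.99% as higher and 8.43% as lower. Most genes are dimmer than these, and among the 959 genes within the signal range of the members 0.834% passed it, so a count of 0 among 76 genes lies near that background. No member passed 1.5-fold either, against 33.2% of all named genes and 6.26% of genes of that signal range.

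The scanner error of each member was 0.20 on the log2 scale, the same for all because it is a share of the signal. It is given by the array software and was not measured from replicates. In all, 65 of the 76 genes lay within 0.2 of the members' median. The spread among the members, an SD of 0.14, was thus below the error given for a single one, and their order should be read with that in mind.

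The direction rests on the scaling. Without it, the median of the members was 0.05 and 27 of the 76 genes lay below 0, while the median of all genes well above background on both arrays was 0.30. With it, the median of those 12615 genes was -0.02, and 51.5% of them lay below 0. The median of the members minus that of all genes was -0.25 on the log2 scale. A scaling that shifts all genes alike cannot change this difference. It was -0.17 after cyclic loess, -0.14 after quantile normalization, -0.15 after normexp with quantile normalization and -0.13 with no filter on dim probes. Other genes between the lowest and the highest signal of the members did not, as a set, show the same shift. The 883 other genes in the members' signal range had a median of 0.06 with an SD of 0.36, and 42.9% of them lay below 0 (47.3% with the members counted in). The median of the members minus theirs was -0.32. These genes share the ends of the members' range but were not matched to them in signal within it.

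**Figure D1:**
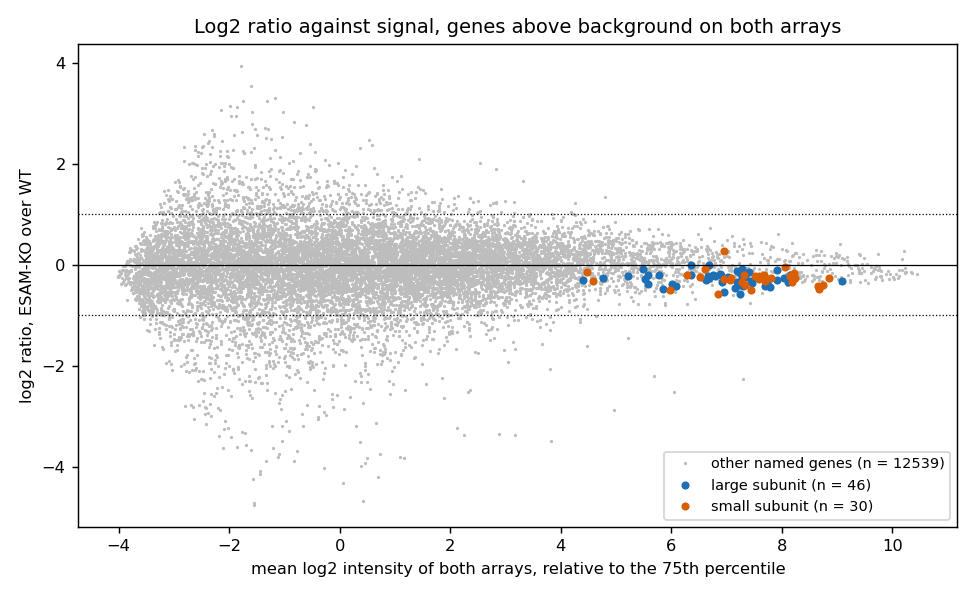
Log2 ratio of ESAM-KO over WT (y axis) against the mean log2 intensity of both arrays relative to the upper quartile of each array (x axis), for the 12615 named genes well above background on both. Large subunit genes are blue, small subunit genes orange and other genes grey, with dotted lines at 2-fold. The members sit at the bright end, in a narrow band just under 0, where 75 of 76 lie after scaling (27 without it).

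The subunits had nearly the same median. The 46 large subunit genes had a median log2 ratio of -0.27 with an SD of 0.13, and 46 of 46 lay below 0. The 30 small subunit genes had a median of -0.27 with an SD of 0.16, and 29 of 30 lay below 0. The large subunit median minus the small subunit median was 0.0009. The scanner error of a single gene (0.20) is far larger but does not measure the uncertainty of a median. Genes are not replicates, so no test was made of this difference.

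**Figure D2:**
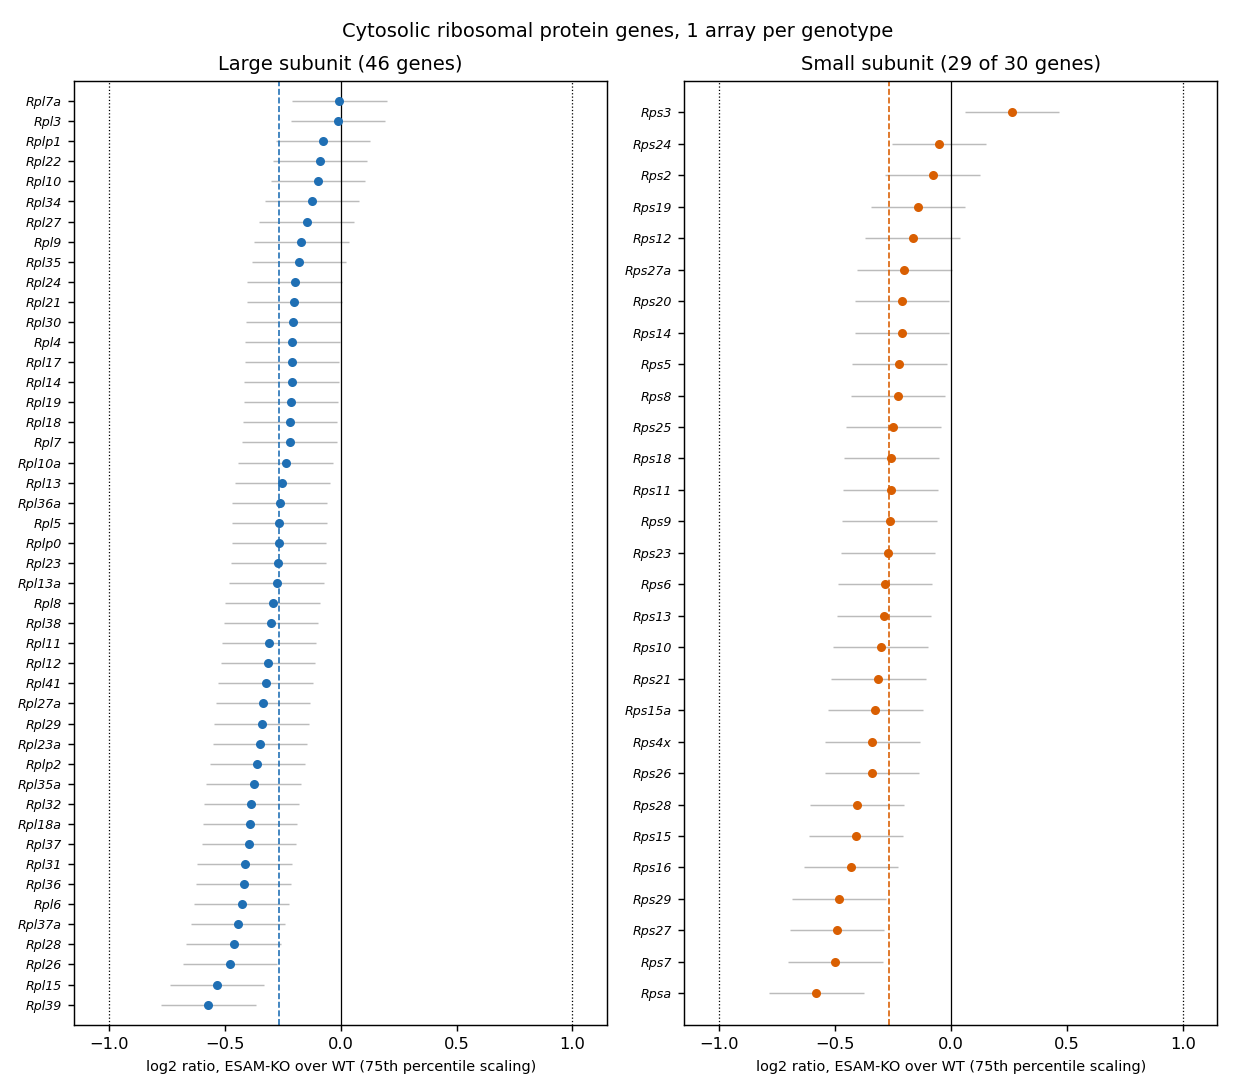
Log2 ratio of ESAM-KO over WT after upper-quartile scaling (x axis) for each large subunit gene (left, n = 46) and for 29 of the 30 small subunit genes (right), sorted by value. The value of 1 gene is not reported here, but the medians and counts include it. Points are single values from 1 array per genotype, grey bars the scanner error of 0.20, dashed lines the subunit medians (-0.27 in both) and dotted lines 2-fold. Rps3 alone lies above 0; without scaling all points move right by 0.32 and 49 of the 76 genes lie above 0.

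In the large subunit the lowest value belonged to Rpl39, a small protein of the tunnel through which the new peptide leaves. It read 37307 in WT and 31313 in ESAM-KO, giving a scaled log2 ratio of -0.57 ± 0.20. Rpl15 followed, with 29984 in WT and 25814 in ESAM-KO and a log2 ratio of -0.53 ± 0.20. Both were lower in ESAM-KO before scaling as well. The 2 probes of Rpl15 differed, and the dimmer one gave 0.08, so its place near the bottom depends on the choice of probe.

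Rpl26, which lies near the exit of the tunnel and binds Mdm2, read 13691 in WT and 12258 in ESAM-KO (log2 ratio -0.48). Rpl28, with the tract at its annotated start, read 33847 and 30631 (-0.46). Rpl37a, a zinc-binding protein, read 51657 and 47402 (-0.44). These 3 genes were also the next lowest of the large subunit, and each lay within the scanner error of the median of its subunit or just past it.

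At the other end of the large subunit, Rpl7a read 20631 in WT and 25620 in ESAM-KO, giving a log2 ratio of -0.01. Rpl3, a core protein close to the peptidyl transferase centre, read 16672 and 20624 and gave the same ratio of -0.01. On the unscaled intensities both read higher in ESAM-KO, as the upper quartile of the array did. Rpl22, which T cell development is known to need, read 9299 and 10893 (-0.09), and its second and dimmer probe read 816 and 565 (-0.85). Rpl10, the X-linked protein that joins late in the assembly of the large subunit, read 50478 and 58847 (-0.10).

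The small subunit held both extremes of the whole set. Rpsa, which is also known as a laminin receptor, read 28255 in WT and 23547 in ESAM-KO, giving a log2 ratio of -0.58 ± 0.20. Its probes with intensities of 6830 and 3937 in WT gave -0.52 and -0.56, and only its dimmest probe, at 610 in WT and 1117 in ESAM-KO, went the other way, with 0.55. The 3 brighter probes thus gave nearly the same value.

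Rps3, a protein of the mRNA entry channel that also has a part in DNA repair, was the 1 member above 0. It read 22881 in WT and 34262 in ESAM-KO, giving a log2 ratio of 0.26 ± 0.20. Its other probe, of nearly the same intensity (24352 in WT and 24931 in ESAM-KO), gave -0.28, which is close to the median of all members. The probes of Rps3 therefore differed in sign, and the value above 0 rests on 1 of 2 probes.

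Next to Rpsa at the low end stood Rps7, a protein of the small subunit that also binds Mdm2, with 15153 in WT and 13373 in ESAM-KO (log2 ratio -0.50). Rps27 and Rps29, both zinc-binding, read 41711 and 36965 (-0.49) and 96901 and 86426 (-0.48). Rps16, whose tail reaches the peptidyl-tRNA, read 94690 and 87567 (-0.43). All 4 were lower in ESAM-KO on the unscaled intensities too.

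Next to Rps3 at the high end stood Rps24, with 54601 in WT and 65705 in ESAM-KO (log2 ratio -0.05). Rps2, which lies with Rps3 at the mRNA entry, read 20301 and 23957 (-0.08). Rps12 read 63743 and 70845 (-0.17). Rps24 has 1 probe for each of 3 transcripts: the probe above is that of NM_207635, while those of NM_207634 and NM_011297 gave -0.35 and -0.27.

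The Diamond-Blackfan list holds 19 members, in both subunits. All 19 lay below 0 after scaling, where 98.7% of all members did, with a median log2 ratio of -0.33 and a range of -0.53 to -0.05. Without scaling their median was -0.01. The 57 members outside the list had a median of -0.26. The list thus stood within the band of the other members.

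Rps19, the gene most often mutated in the disease and needed to mature the small subunit RNA, read 4683 in WT and 5288 in ESAM-KO, giving a log2 ratio of -0.14 ± 0.20. Rpl5 (5974 and 6201) and Rpl11 (4724 and 4755), the partners of 5S rRNA, gave -0.26 and -0.31. Rps19 lay nearer to 0 than both, by less than the scanner error. Rpl35a (11010 and 10580) and Rps26 (66063 and 65044), also frequent among patients, gave -0.38 and -0.34.

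Of the rest of that list, Rps28 and Rpl31 gave -0.41 each, Rps15a -0.33, Rps10 -0.30, Rpl18 -0.22, Rpl35 -0.18 and Rpl27 -0.15. Rpl15, Rps7, Rps27, Rps29, Rpl26 and Rps24, given above, belong to it as well. Of the 10 lowest members named above, 5 from each subunit, 5 belong to this list, which holds 19 of the 76 members. This count was made after the values were seen.

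The next list holds 8 members known to bind Mdm2 or to belong to the 5S RNP. Their median log2 ratio was -0.27, the same as that of all members, and 7 of 8 lay below 0. Rpl23 gave -0.27, Rps14, whose loss in humans is tied to an anemia of the 5q deletion, gave -0.21 (16824 in WT and 18122 in ESAM-KO), and Rps27a, made as a fusion with ubiquitin, gave -0.20.

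The P stalk, which recruits the elongation factors to the large subunit, is built from Rplp0, Rplp1 and Rplp2. Rplp0, its base, read 22645 in WT and 23486 in ESAM-KO (log2 ratio -0.27). Rplp1 read 32236 and 38100 (-0.08), and Rplp2 read 40378 and 39239 (-0.36). Rplp1 and Rplp2 form dimers on the stalk, and the gap of 0.28 between their log2 ratios was below the scanner error of such a difference (0.29).

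The X chromosome holds 4 members, and 4 of 4 lay below 0, with a median of -0.30. Beside Rpl39 (-0.57) and Rpl10 (-0.10), these were Rps4x (34984 and 34483, -0.34) and Rpl36a (34157 and 35486, -0.26). Rps6 read 27446 in WT and 28088 in ESAM-KO, giving a log2 ratio of -0.28.

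Some proteins of the ribosome carry other symbols and fell outside the rule. Fau, a fusion of a ubiquitin-like protein with the small subunit protein eS30, read 121327 in WT and 118473 in ESAM-KO (log2 ratio -0.35). Rack1, a scaffold on the small subunit, read 30953 and 33054 (-0.22). Rps3a1, added after its value was seen, gave -0.22. These 3 lay within the range of the members.

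The paralogs of ribosomal proteins spread more widely (SD 0.30, against 0.14 for the members). Those above background on both arrays read 49.3 to 3908 in WT, below every member (lowest 4683), so they were not matched in signal. Rps27l, a paralog of Rps27 that p53 is known to induce, read 1166 in WT and 1838 in ESAM-KO, giving a log2 ratio of 0.34 ± 0.20, where Rps27 gave -0.49. Rpl22l1, the paralog of Rpl22, read 1284 and 1780 (0.15), and Rpl7l1 read 106 and 152 (0.19). These 3 lay above 0, where 1 of the 76 members did, but Rpl22l1 and Rpl7l1 lay within their scanner errors (0.20 and 0.21) of 0.

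The other 3 measured on each array had log2 ratios within the range of the members, at lower intensities. They were Rpl10l (49.3 in WT and 50.7 in ESAM-KO, -0.28), Rpl36al (3908 and 3964, -0.30) and Rps4l (146 and 144, -0.34). Rpl39l was not well above background in WT and reached 23.4 in ESAM-KO, at least 1.49-fold higher, where the bound sets the lowest signal above background in place of the dim reading. Rpl3l did not exceed background in either genotype. Paralogs and processed pseudogenes of these genes are so similar in sequence that a probe may bind the cDNA of several, so each value is uncertain to that extent.

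Other gene lists of the same machinery were read on the same scale. The 16 other TOP mRNAs, which code mostly for translation factors, had a median log2 ratio of -0.11, with 12 below 0. They ran from -0.60 for Eif3f, a subunit of the initiation factor eIF3, to 0.32 for Nap1l1, a histone chaperone. Without scaling their median was 0.20. None of the 16 passed 2-fold.

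The genes of ribosome biogenesis, which make and process ribosomal RNA, lay on the other side of 0. Of 24 listed, 23 could be measured on each array, and 19 of these were higher in ESAM-KO after scaling, with a median of 0.27. Polr1b, a subunit of RNA polymerase I, read 146 in WT and 459 in ESAM-KO and was the 1 gene past 2-fold (log2 ratio 1.33). Tsr1, needed for the small subunit, was the lowest, with 690 and 608 (-0.50). The median of this list lay 0.54 above that of the ribosomal proteins.

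The 78 mitochondrial ribosomal proteins, which form the separate ribosome of mitochondria, had a median of 0.21, and 55 lay above 0. Mrpl43 (897 and 2621, log2 ratio 1.23) and Mrpl10 (784 and 332, -1.56) were the highest and the lowest and the only ones past 2-fold. Their SD was 0.42, and their median lay 0.48 above that of the cytosolic ribosomal proteins. Of these genes 10 lay within the signal range of the members, as did 5 of the biogenesis genes, so the lists were not matched in signal.

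**Figure D3:**
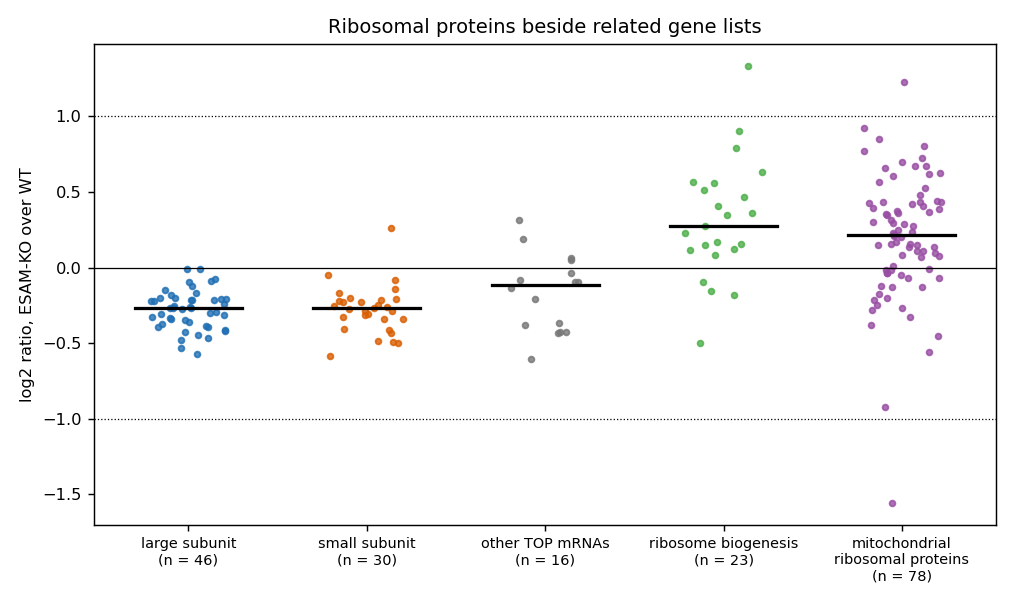
Log2 ratio of ESAM-KO over WT after upper-quartile scaling (y axis) for the genes of 5 lists well above background on both arrays. Points are single genes, spread sideways only for sight, black bars are medians (-0.27, -0.27, -0.11, 0.27 and 0.21 from left to right) and dotted lines 2-fold. The medians of both cytosolic subunits lie under those of the other lists. Rps3 (0.26 by its brightest probe, -0.28 by the other) is the only member above the mitochondrial median, and no member lies above that of ribosome biogenesis. Without scaling the subunit medians are 0.05 and those of the other lists 0.20, 0.59 and 0.53.

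The genes of mTORC1 and TOP control went both ways. Of 9 genes, 6 lay below 0, with a median of -0.32, and none passed 2-fold. The highest was Mtor, the kinase of the complex, at 49.2 in WT and 102 in ESAM-KO (0.73), and the lowest Rps6kb2, an S6 kinase, at 1081 and 685 (-0.98). This list spread more (SD 0.56) than the ribosomal proteins (SD 0.14) and less than all named genes above background on both arrays (SD 0.71). Its WT intensities ran from 35.0 to 5383, against 4683 to 123009 for the members, so these lists were not matched in signal.

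The distance between these lists kept its sign under each of the 13 settings in which they were computed. The median of the mitochondrial ribosomal proteins lay 0.37 to 0.48 above that of the members, and that of ribosome biogenesis 0.51 to 0.62 above it. The other TOP mRNAs lay 0.10 to 0.17 above it.

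**Figure D4:**
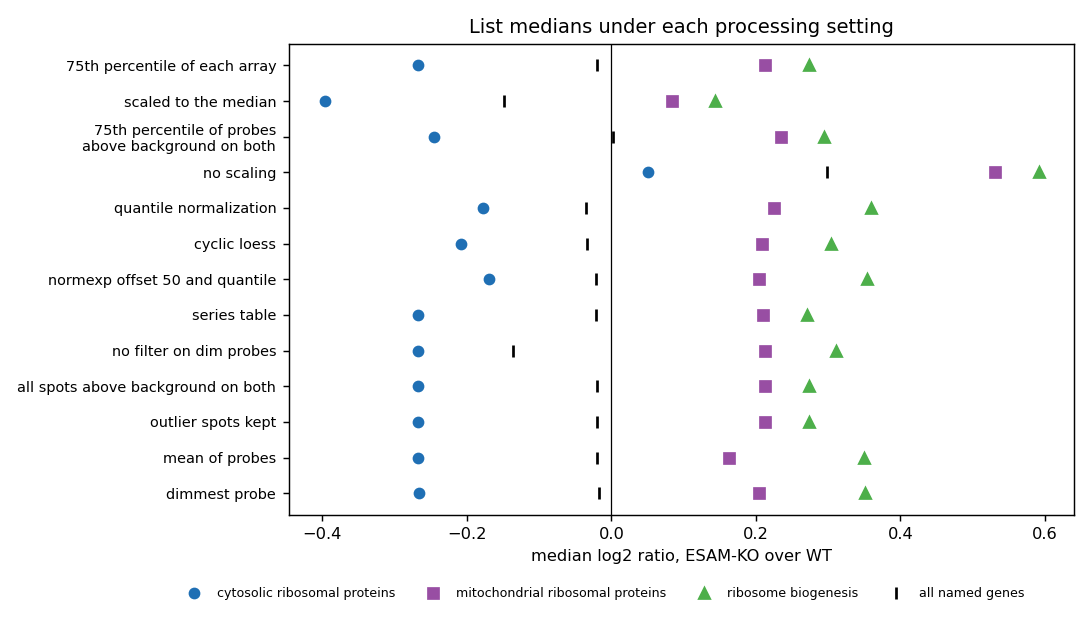
Median log2 ratio of ESAM-KO over WT (x axis) under 13 processing settings (y axis) for the cytosolic ribosomal proteins (blue circles), the mitochondrial ribosomal proteins (purple squares), ribosome biogenesis (green triangles) and all named genes (black ticks). The blue circles lie left of the other symbols in each setting, and right of 0 (at 0.05) only with no scaling.

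The same transcripts were read by several probes in many cases. Of the 76 genes, 25 had 1 probe and 51 had more, up to 7. Of all 164 probes, 154 lay below 0 and 10 above. One probe passed 2-fold, against 13.4% of all named probes above background on both arrays. It is a probe of Rpl21 that read 219 in WT and 63.5 in ESAM-KO (-2.11), while the brightest probe of Rpl21 gave -0.20 and the third -0.06.

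Probes that disagreed were mostly dim. The 150 probes with an intensity of at least 1000 in WT had a median log2 ratio of -0.28 with an SD of 0.16, and 146 of them lay below 0. The 14 dimmer ones, from 13 genes, had a median of -0.05 with an SD of 0.82. Within a gene the gap between its highest and lowest probe had a median of 0.12 over the 51 genes. It was under 0.2 for 34 of them, and all probes lay below 0 in 41.

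The gap passed 1 on the log2 scale in 6 genes. For Rpl21 it was 2.05, for Rps27a 1.17, for Rpsa 1.13, for Rpl6 1.08, for Rps25 1.07 and for Rps15a 1.05. In each of the 6 the odd probe read under 1000 in WT. For Rps25 it read 83.4 in WT and 184 in ESAM-KO (0.82), where the bright probe read 20234 and 21242 (-0.25).

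**Figure D5:**
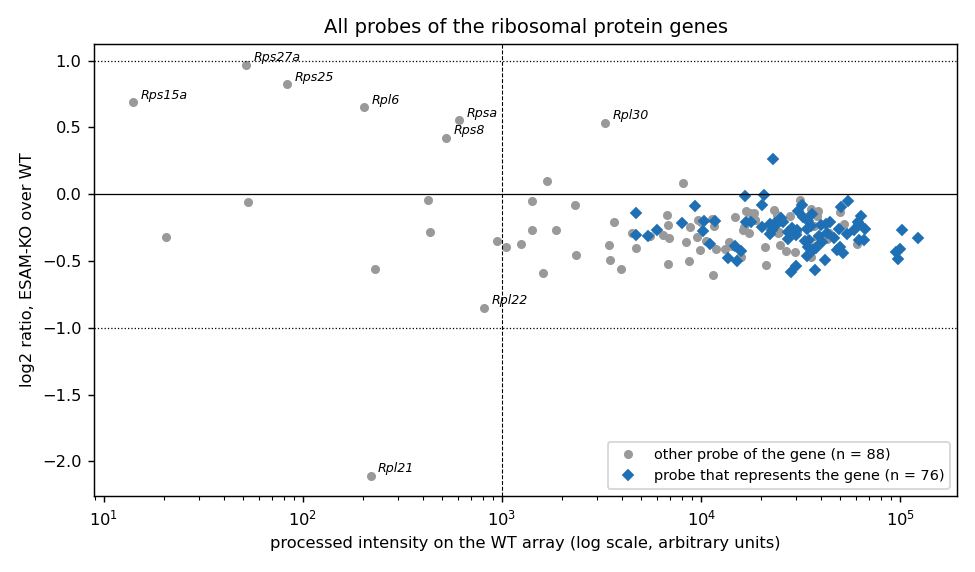
Log2 ratio of ESAM-KO over WT after upper-quartile scaling (y axis) against the WT intensity on a log scale (x axis) for all 164 probes, with the brightest probe of each gene as a blue diamond (n = 76) and the others in grey (n = 88). Dotted lines mark 2-fold and the dashed line an intensity of 1000. The 150 probes right of it form a band around -0.28 and the 14 left of it scatter from -2.11 to 0.97; without scaling all points move up by 0.32.

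A few probes are assigned to 1 transcript of a gene. For Rpl30, the probe of NM_009083 read 3303 in WT and 5957 in ESAM-KO (0.53), while both probes of NM_001163485 gave -0.20 and -0.29. For Rps27a, the probe of NM_024277 read 51.9 and 127 (0.97), and those of NM_001033865 gave -0.20 and -0.16. No probe sequence was used here, so which transcripts each probe binds was not checked.

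The repeat spots of 1 probe give the error within an array. A probe of Rpl23 is printed 10 times, and read 1598 ± 97.0 in WT and 1326 ± 87.8 in ESAM-KO (SD, n = 10 spots of 1 array). Its scaled log2 ratio was -0.59 ± 0.09, from -0.79 to -0.47 over the spots. The other probes of Rpl23 gave -0.27 and -0.17. Repeat spots thus spread less than different probes of the gene did, and neither stands for the spread between mice.

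The promoter windows of the members, 250 bases before to 50 after the annotated start, were also searched on both strands for short motifs. The letters CCGGAAG, a core bound by ETS factors, were found in 36.4% of the member windows and in 8.86% of all windows. CTCGCGAG, which reads the same on either strand, was found in 12.1% and 0.919%, and AAGATGGC, a part of the YY1 motif, in 10.6% and 2.75%. GGGCGG, the core of the Sp1 box, was found in 60.6% and 35.7%.

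AGATAA, a motif of GATA factors, was found in 6.06% of member windows and in 11.2% of all. CACGTG, the E-box that Myc binds, was found in 12.1% and 7.15%, TATAAA in 9.09% and 13.6%, and CCAAT in 31.8% and 37.4%. The median GC content of member windows was 58.2%, against 52.7% in all windows, which bears on how often each motif is met. Over the 8 motifs, the median log2 ratio of genes with a match ran from -0.33 for AAGATGGC to -0.21 for CACGTG, and that of genes without one from -0.30 to -0.26. It was lower with a match than without for CCGGAAG, CTCGCGAG and AAGATGGC, and higher for the other 5. Each of these gaps was below the scanner error of a single gene (0.20), which does not measure the uncertainty of a group median. The ranges with and without a match overlapped. Some motifs had few genes with a match, such as 4 for AGATAA and 5 for AAGATGGC. No motif of this search contains another one, and none of the matches was set against binding data.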

How the data were processed

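The authors deposited, per array, the processed intensity of Agilent Feature Extraction 10.10.1.1, background-subtracted and detrended within the array and not scaled between arrays, and a series table of the same intensity rounded. Scanner flags and the median spot and background signals were used only for filters and 1 alternative. Per the file headers each array has 1 colour (Cy3), and the number of arrays limits the precision.

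The log2 processed intensity minus the upper quartile (75th percentile) of its array was used. Control spots and 254 outlier spots (0 on probes of members) were left out. A probe counted as above background where over 50% of its spots did. The probe with the highest mean signal stood for its gene, and could give a bound where it was above background on only 1 array. Accessions were named through the RefSeq table of GRCm38.p6, which named 48.9% of 55680 probes. The ± values beside single log2 ratios, called scanner error here, come from the error that Feature Extraction gives with each processed intensity. They were not measured from replicates. For the repeat spots of Rpl23 the ± values are an SD. No test was possible with 1 array per genotype. Genes named are those past 2-fold, the 5 highest and 5 lowest of each subunit, the Diamond-Blackfan, P stalk, X-linked and paralog lists, proteins outside the symbol rule, genes whose probes differ by more than 1, Rpsa, Rps6, Rps14, Esam, and the extremes of other lists. Other genes were named after their values were seen. Single values of some genes of these lists are not reported here. Members and lists were chosen with earlier results of these data known.

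Alternatives were 5 other scalings, normexp (offset 50, on median spot signals because mean signals were not in the columns used), the series table, other filters, other probes, and thresholds of 1.5-fold and 3-fold. A scaling to genes in the members' signal range, the counts below 0 and the difference from all genes were added after the data were seen. On simulated arrays of 20660 genes for this comparison, 187 of 200 genes changed 4-fold were recovered and 0 unchanged genes were called. The simulated ESAM-KO array was the WT array with added noise smaller than the scanner error of a member (0.20). The 0 calls were therefore set by that noise and give no rate of false calls for the real arrays. Python 3.11.15, numpy 2.4.6, pandas 2.3.3, R 4.3.3 and limma 3.58.1 were used.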

Additional observations from a re-analysis of the deposited data

How the results depend on the processing

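Of 225 list medians and counts under the alternatives, 210 moved by less than the scanner error of a single gene or the limit set for counts. The other 15 moved by more, each of them with no scaling between arrays. There the median log2 ratio was 0.0511 for the members, 0.0511 for the large and 0.0502 for the small subunit, and 27 members lay below 0. It was 0.30 for all genes, -0.008 for the Diamond-Blackfan list, 0.0517 for the 5S RNP and Mdm2 binders, 0.0526 for the P stalk, 0.0171 for the X-linked members and -0.0115 for proteins outside the symbol rule. It was 0.26 for paralogs, 0.20 for other TOP mRNAs, 0.59 for ribosome biogenesis, 0.53 for mitochondrial ribosomal proteins and 0.0019 for mTORC1 and TOP control. Scaling to the median moved the median of the members to -0.40 and that of mitochondrial ribosomal proteins from 0.21 to 0.08, both by less than that error. The error of a single gene does not measure the uncertainty of a list median. The members' median minus that of all genes stayed between -0.25 and -0.13 over the 14 settings in which it was computed, and the count past 2-fold was 0 in each. Of 635 values of 53 named genes, 562 moved by less than the scanner error and 73 by more, 52 of these with no scaling. With the dimmest probe in place of the brightest, Rpsa gave 0.55, Rpl15 0.08 and Rps3 -0.28, since the probes of each differ. No paired analysis was possible because only 1 array was made per genotype, which also left the slide as a block not applicable.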
